A study of Arabidopsis thaliana with 12 samples.

Results

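Watered rosettes of the atx1 mutant of Arabidopsis thaliana were compared with watered wild-type rosettes, using the 2 atx1 and the 2 wild-type arrays among the 12 arrays of the study. The arrays were chosen by their labels, and every probe set other than the Affymetrix control probe sets was kept. Total RNA came from vegetative rosettes of plants 4 weeks old that had been kept watered, and each of the 2 biological replicates of a group was put on its own Affymetrix ATH1 array. Wild type was the cultivar Columbia-0. The atx1 group is labelled only as a mutant of ATX1, with neither the allele nor the accession of the line given in the labels. A difference of accession, or a second change carried by the line, therefore cannot be told apart from the mutation. Further arrays used here were the atx1 and wild-type rosettes brought to a relative water content of 65%, and the rosettes of MYO-OX, watered and at the same water deficit. By its name that line overexpresses MYO1, the Arabidopsis homolog of myotubularin. Values are the authors' log2 signals, so that a difference of 1 is a 2-fold difference. The number of arrays limits the precision, and with 2 arrays a group the test draws its estimate of the spread from all 6 groups.

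ATX1 (ARABIDOPSIS TRITHORAX 1) is a histone methyltransferase of the trithorax family, whose members add methyl groups to the histone tails of active genes and are known for keeping genes of development expressed. In Arabidopsis it is known for its part in flower development, flowering time, defence signalling and the response to drought. Plants without it can be grown to rosettes when watered, and the comparison asks what differed in the mutant before any water was withheld.

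The annotation of the array named 1 gene for 13513 probe sets, several for 503, and did not list 8730 of the 22746 probe sets tested. Of the 13344 genes, 1552 carried a symbol. ATX1 itself, and FLC, WRKY70, PR1, NCED3, AG, AP1 and RBCS1A, which had been set down to be reported, had no probe set under their names in these tables. The mutation was thus not checked on the arrays. Across probe sets the replicates correlated at 0.978 in wild type and 0.969 in atx1, as a description, since probe sets of an array are not independent. The replicates differed at least 2-fold in 4.88% of probe sets in wild type and in 7.57% in atx1, against 8.14% between the group means. Single arrays vary more than means of 2 arrays, so these shares are not on the same measure. The spiked hybridization controls averaged 8.79 and 8.17 in wild type and 9.53 and 8.25 in atx1, so that replicate 1 was the higher array in both groups. GAPDH probe sets at the 3' end read higher than those at the 5' end by 0.60 and 0.25 in wild type and 0.60 and 0.32 in atx1. The groups overlapped in both quantities. Their part in the results was not tested, apart from fits that held them as covariates.

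In watered atx1 rosettes, genes for a thiol reductase and for DNA replication were among those at a higher level. Genes for lectins, the beta-glucosidase PYK10, a histone H2B, stress-induced regulators and cell wall proteins were among those at a lower level. Starch and sugar transport held calls in both directions. Many of these calls did not hold in every alternative fit, as given with each gene below. limma called 501 probe sets, which is 2.2% of those tested, at a Benjamini-Hochberg adjusted p under 0.05. Of these, 272 (1.2%) were higher in atx1 and 229 (1.01%) were lower. At an unadjusted p under 0.05 the share was 12.6%, made up of 7.43% higher and 5.13% lower. The 2 arrays of each group did not overlap in 43% of all probe sets, and in each of the 501 called. That the groups were apart for a called gene below therefore adds nothing to its call.

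The higher and the lower probe sets differed in where they stood in wild type. The 272 higher ones had a median wild-type level of 4.93 and a median atx1 level of 7.13, with a median difference of 1.79. The 229 lower ones had a median wild-type level of 8.07, a median atx1 level of 5.51 and a median difference of -2.23. Thus the higher group lay below the median of all probe sets in wild type, which was 6.08, and the lower group above it. The sets were called on these same arrays, so part of this follows from the choice. In atx1 the order was reversed, at 7.13 and 5.51. A difference of at least 8-fold was seen in 29 of the higher and 52 of the lower probe sets, and of at least 16-fold in 6 and 15. In 77 of the higher probe sets the wild-type level lay among the dimmest 25% of levels, and 18 of those stood above the median level in atx1. In 31 of the lower ones the atx1 level was as dim, and 18 of those stood above the median level in wild type. The deposited values hold no detection calls, so a fold against such a level is not exact. Over all probe sets the median difference was 0.04, with 55.5% of differences above 0 and 44.5% below. After median centring of every array it was -0.06, and the calls were then split into 206 higher and 292 lower.

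**Figure D1:**
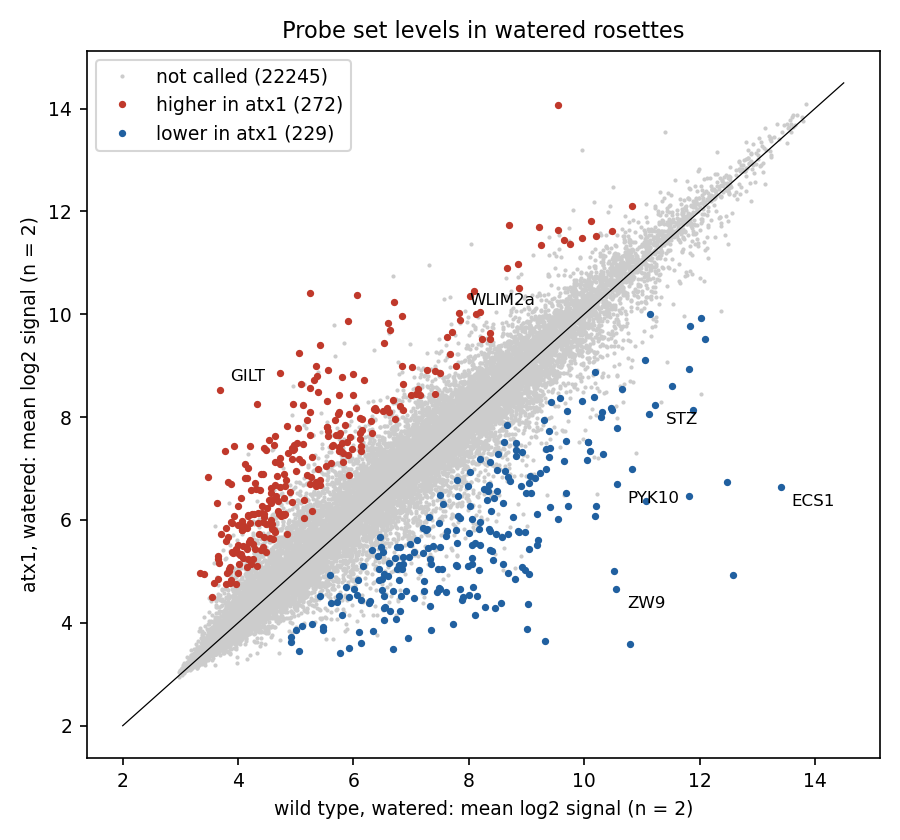
Mean log2 signal of each probe set in watered wild type (x axis) and watered atx1 (y axis), each the mean of 2 arrays, with a line where both are equal. The 272 probe sets called higher lie mostly at low wild-type levels, with a median of 4.93, and the 229 called lower mostly at high ones, with a median of 8.07. Part of this follows from calling them on the same arrays.

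Among the higher genes with a symbol, GILT (AT4G12960) stood first. It belongs to the gamma-interferon-responsive lysosomal thiol reductase family, whose members reduce disulfide bonds. Its level was 3.61 and 3.76 on the wild-type arrays and 8.34 and 8.74 on the atx1 arrays, a 28.9-fold difference (adjusted p = 0.000151). Both atx1 arrays were far above both wild-type arrays, but the wild-type level was dim, with 8.19% of probe sets no brighter. GILT was the 1 gene called of 49 listed for oxidative stress and detoxification, against 1.2% of all probe sets called higher. The median difference of the 49 was -0.01. DELTA-VPE (AT3G20210), for a vacuolar processing enzyme known from the seed coat, was likewise low in wild type, at 4.07 and 4.06, and stood at 6.13 and 5.83 in atx1 (log2 difference 1.92 ± 0.185, SE, adjusted p = 0.00246). SHT (AT2G19070), for a spermidine hydroxycinnamoyl transferase known from the anther, was 3.88-fold higher, at 4.39 and 4.74 against 6.55 and 6.50 (adjusted p = 0.0233). The groups were apart for all 3 genes, while 19.6% and 30.8% of probe sets lay at or below the wild-type level of DELTA-VPE and SHT. The call of SHT ended whichever of the 4 arrays was left out (adjusted p from 0.0839 to 0.179), and those of GILT and DELTA-VPE held in each such fit.

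Genes of DNA replication and cell division had differences above 0 in atx1, 2 of them past the test. TOPII (AT3G23890), for the topoisomerase that untangles replicated DNA, stood at 4.71 and 4.62 in wild type and 6.42 and 7.29 in atx1, a 4.54-fold difference (adjusted p = 0.0295). ICU2 (AT5G67100), for the catalytic subunit of DNA polymerase alpha, stood at 4.71 and 4.57 against 6.41 and 6.95, a 4.11-fold difference (adjusted p = 0.0139). For both, the atx1 arrays were the higher ones and the groups did not overlap. Of the 7 cell cycle genes measured, these 2 were called and 5 did not pass, against a background of 1.2% called higher, while the difference was above 0 in all 7. Their median difference was 1.16, against 0.04 over all probe sets, and ranged from 0.86 to 1.46 over the alternative settings. At an unadjusted p under 0.05 were 6 of the 7, against 7.43% of all probe sets on the higher side. PRL (PROLIFERA), a subunit of the replicative helicase, was at 5.47 and 6.24 against 7.35 and 8.11 (adjusted p = 0.123). AUR1, for an Aurora kinase of mitosis, was at 7.01 and 6.47 against 8.20 and 7.60 (adjusted p = 0.2). BUB3.2 (AT1G49910), named for a spindle checkpoint protein and outside this list, was 2.54-fold higher, at 4.56 and 4.57 against 6.17 and 5.65 (adjusted p = 0.0233). The calls of TOPII and ICU2 ended without either wild-type array or without atx1 replicate 2 (adjusted p from 0.0897 to 0.165), and that of BUB3.2 ended without either wild-type array or without atx1 replicate 1 (from 0.122 to 0.155). In whole rosettes, more dividing cells and more of these RNAs per cell cannot be told apart.

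Starch and carbon metabolism held genes that differed in both directions. APL4 (AT2G21590), for a large subunit of ADP-glucose pyrophosphorylase, the enzyme that commits glucose to starch, stood at 3.78 and 3.80 in wild type and 5.62 and 5.58 in atx1 (3.51-fold, adjusted p = 0.00359). DPE1 (AT5G64860), for the plastid disproportionating enzyme of starch breakdown and outside the list counted here, stood at 6.01 and 6.23 against 8.39 and 7.57 (3.63-fold, adjusted p = 0.0426). QQS (AT3G30720), a gene found in Arabidopsis alone that affects leaf starch, went the other way, at 6.14 and 6.06 against 3.92 and 3.73 (4.84-fold lower, adjusted p = 0.0126). The groups were apart for each, with wild-type APL4 and atx1 QQS both dim, at levels with 11.1% and 12.4% of probe sets at or below them. Of 21 genes for sugar transport and starch, 2 were higher, 2 were lower and 17 did not pass. Of all probe sets, 1.2% were called higher and 1.01% lower. At an unadjusted p under 0.05 were 11 of the 21, against 12.6% of all probe sets. The list had a median difference of 0.13 (-0.12 without wild-type replicate 2). The other 2 called were sugar transporters, SWEET4 at 5.95 and 5.91 against 6.93 and 6.81 (adjusted p = 0.0487) and SWEET13 at 8.25 and 8.41 against 7.03 and 6.09 (adjusted p = 0.048). SWEET9, known as the sucrose exporter of nectaries, had the highest difference of the list at 2.12, from 3.94 and 3.94 to 6.52 and 5.61, and did not pass (adjusted p = 0.0624). ACLA-2 (AT1G60810), for a subunit of ATP-citrate lyase, which makes cytosolic acetyl-CoA, was at 8.24 and 8.15 against 10.21 and 9.89 (3.63-fold higher, adjusted p = 0.0233). Unlike APL4 it was well expressed in both groups. The call of APL4 held whichever array was left out, and those of DPE1, QQS and ACLA-2 ended in each of the 4 such fits, with adjusted p from 0.0659 to 0.256.

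The remaining higher genes were of mixed roles. ALC (AT5G67110, ALCATRAZ), a bHLH transcription factor of fruit opening, stood at 4.38 and 4.49 against 7.03 and 6.75 (5.49-fold, adjusted p = 0.00799). WLIM2a (AT2G39900), for a LIM protein that bundles actin filaments, stood at 7.77 and 7.90 against 10.37 and 9.67 (4.55-fold, adjusted p = 0.0361). bZIP44 (AT1G75390), a transcription factor gene, stood at 6.52 and 7.20 against 8.73 and 8.57 (adjusted p = 0.041). In all 3 both atx1 arrays were above both wild-type arrays. Fes1B (AT3G53800), related to a nucleotide exchange factor of Hsp70 chaperones, was 3.37-fold higher, at 6.29 and 6.49 against 8.20 and 8.10 (adjusted p = 0.00405). It was the 1 gene called of 6 for heat shock and chaperones, against 1.2% of all probe sets called higher. PIFI (AT3G15840), for a chloroplast protein of chlororespiratory electron transport, was 2.86-fold higher at a high level, 10.26 and 9.68 against 11.64 and 11.34 (adjusted p = 0.0359). ZCF125 (AT1G59540) was 2.82-fold higher from a dim level, at 3.74 and 3.60 against 5.15 and 5.18 (adjusted p = 0.0252). None of these groups overlapped. The call of ALC ended without wild-type replicate 1 (adjusted p = 0.0782) or atx1 replicate 1 (0.0635), and that of Fes1B without wild-type replicate 1 (0.0545). Those of WLIM2a, bZIP44, PIFI and ZCF125 ended whichever array was left out, with adjusted p from 0.072 to 0.269.

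Genes of the ER body and of jacalin lectins held the largest called differences of any list on the lower side. ER bodies are compartments of the Brassicaceae that store the beta-glucosidase PYK10, which meets its substrates and jacalin-related lectins when the cell is broken. PYK10 (AT3G09260) was at 10.66 and 10.48 in wild type and at 6.18 and 7.20 in atx1 (14.7-fold lower, adjusted p = 0.00848). JAL33 (AT3G16450) was at 8.76 and 9.32 against 5.17 and 4.74, and JAL22 (AT2G39310) at 8.60 and 8.99 against 4.77 and 4.93 (adjusted p = 0.00453 and 0.00202). In all 3 the atx1 arrays were the lower ones by a wide margin. NAI2, a component of the ER body, was at 6.93 and 6.10 against 4.14 and 4.36, a difference of -2.26 that did not pass (adjusted p = 0.0842). NAI1, the transcription factor of ER body formation, was at 7.15 and 6.72 against 5.89 and 5.97, a difference of -1.01 (adjusted p = 0.18). The other 23 of the 28 genes of this list, mostly beta-glucosidases, did not pass, and the list's median was 0.08 (-0.02 with median centring). Thus 3 of the 28 were called lower, against 1.01% of all probe sets. The highest difference in it, 3.66 for ATA27, rested on wild-type arrays that disagreed, at 3.65 and 6.25 against 8.55 and 8.68 in atx1 (adjusted p = 0.0888). The calls of JAL33 and JAL22 held whichever array was left out, and that of PYK10 ended without wild-type replicate 1 (adjusted p = 0.0786) or atx1 replicate 1 (0.0616). PYK10 is also a root marker, and the other root marker measured, the root hair expansin EXPA7, was dim in every array at 4.41, 4.53, 4.34 and 3.98.

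Genes that plants switch on soon after wounding, touch or pathogens had differences mostly below 0, with 2 past the test. STZ (AT1G27730, also ZAT10), a zinc finger repressor of abiotic stress responses, was at 11.54 and 10.92 in wild type and 8.88 and 7.60 in atx1 (7.95-fold lower, adjusted p = 0.0308). PUB19 (AT1G60190), a U-box ubiquitin ligase of drought signalling, was at 8.18 and 8.34 against 6.78 and 6.45 (3.14-fold lower, adjusted p = 0.0146). These were the 2 called of 20 genes, against 1.01% of all probe sets called lower. For both, the atx1 arrays lay below the wild-type arrays. The difference was below 0 in 17 of the 20, with a median of -1.32 that ranged from -1.57 to -0.81 over the alternatives. Counted in either direction, 11 had an unadjusted p under 0.05, against 12.6% of all probe sets. WRKY22, a transcription factor of pathogen responses, was at 7.91 and 7.11 against 5.54 and 5.87 and came nearest to passing (adjusted p = 0.0527). PUB23, a U-box ligase that restrains immune signalling, was at 7.58 and 7.69 against 4.72 and 5.15 (adjusted p = 0.162), and the calmodulin-like gene CML38 differed by -2.32 (adjusted p = 0.18). Wild-type replicate 1 was above replicate 2 in several of these, as in WRKY53 at 8.45 and 7.15 and PUB22 at 7.58 and 5.78. Without wild-type replicate 1 the list's median was -0.81. The call of STZ ended without that array (adjusted p = 0.215), without wild-type replicate 2 (0.0951) or without atx1 replicate 2 (0.162), and that of PUB19 ended in each of the 4 fits, with adjusted p from 0.0562 to 0.101.

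Among genes of the cell wall and of growth, EXLB1 (AT4G17030), an expansin-like gene, was at 8.45 and 8.50 in wild type and 6.19 and 5.28 in atx1 (6.67-fold lower, adjusted p = 0.00511). EXPB1 (AT2G20750), a beta-expansin gene, was at 8.19 and 8.17 against 6.22 and 5.42 (5.14-fold lower, adjusted p = 0.0352). Wild-type replicates agreed closely for both, and the atx1 arrays were lower and further apart. These were the 2 called of 30 genes for expansins and xyloglucan enzymes, against 1.01% of all probe sets called lower. The median of the 30 was -0.11. XTH19, for a xyloglucan endotransglucosylase, was at 8.19 and 8.22 against 6.43 and 5.68 and did not pass (adjusted p = 0.102), and XTH33 was nearly level, at 5.13 and 5.52 against 5.39 and 4.98. ECS1 (AT1G31580), for a cell wall protein, had the largest fold among genes with a symbol, but its atx1 arrays were 3.29 apart, at 8.28 and 4.99 against 13.56 and 13.27 in wild type (adjusted p = 0.00674). IAA29 (AT4G32280), a repressor of the auxin response, was at 7.70 and 7.88 against 5.50 and 4.69 (adjusted p = 0.00301). It was the 1 gene called of 20 for auxin, against 1.01% of all probe sets called lower. GH3.17, for an enzyme that conjugates auxin to glutamate, was at 7.20 and 6.60 against 5.63 and 5.95 and did not pass (adjusted p = 0.0627). The auxin list had a median of -0.09. The call of IAA29 held whichever array was left out. Those of EXLB1 and ECS1 ended without wild-type replicate 1 (adjusted p = 0.0572 and 0.071), and that of EXPB1 ended in each of the 4 fits, with adjusted p from 0.0764 to 0.2.

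ZW9 (AT1G58270) and 2A6 (AT1G03410) were the only lower genes with a symbol to be called in each of the 15 alternative fits. JAL22 and JAL33 were called in 14. ZW9 was at 10.66 and 10.46 in wild type against 4.48 and 4.83 in atx1, and 2A6, a dioxygenase-like gene, at 8.96 and 8.99 against 5.09 and 4.98 (15.3-fold lower, adjusted p = 0.00118). Both calls held whichever array was left out and in a fit of the 4 watered arrays alone. HTB11 (AT3G46030), for a histone H2B, was at 9.26 and 8.11 against 5.08 and 4.86 (13.2-fold lower, adjusted p = 0.0171). It was the 1 called of 8 histone genes, against 1.01% of all probe sets called lower. The other H2B genes measured did not follow it, with differences of 0.61 for HTB1 and -0.10 for HTB2. H2B genes are close in sequence, and whether the HTB11 probe set reads 1 gene was not tested. CYP71B26 (AT3G26290) and CYP71B24 (AT3G26230), nearby members of a large cytochrome P450 family, were 8.88-fold and 5.31-fold lower (adjusted p = 0.00494 and 0.0452). They were at 9.65 and 9.16 against 6.74 and 5.77, and at 7.15 and 6.13 against 4.54 and 3.92. These were the 2 called of 28 P450 genes, against 1.01% of all probe sets called lower. The median of the 28 was -0.11. AFR (AT2G24540), an F-box gene of far-red light responses, was at 9.59 and 9.07 against 7.51 and 6.50 (adjusted p = 0.0315), and UGT72B3 (AT1G01420), a glycosyltransferase gene, at 5.52 and 5.99 against 4.26 and 4.77 (adjusted p = 0.0293). UGT72B3 was the 1 called of 52 glycosyltransferase genes, against 1.01% of all probe sets called lower. Of the 52, 41 had a difference below 0, with a median of -0.20. The call of CYP71B26 ended without wild-type replicate 1 (adjusted p = 0.0576). That of HTB11 ended without wild-type replicate 1 or either atx1 array, that of AFR without either wild-type array or atx1 replicate 2, and that of UGT72B3 without either wild-type array or atx1 replicate 1. That of CYP71B24 ended whichever array was left out. In all these fits the adjusted p lay between 0.0687 and 0.283.

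**Figure D2:**
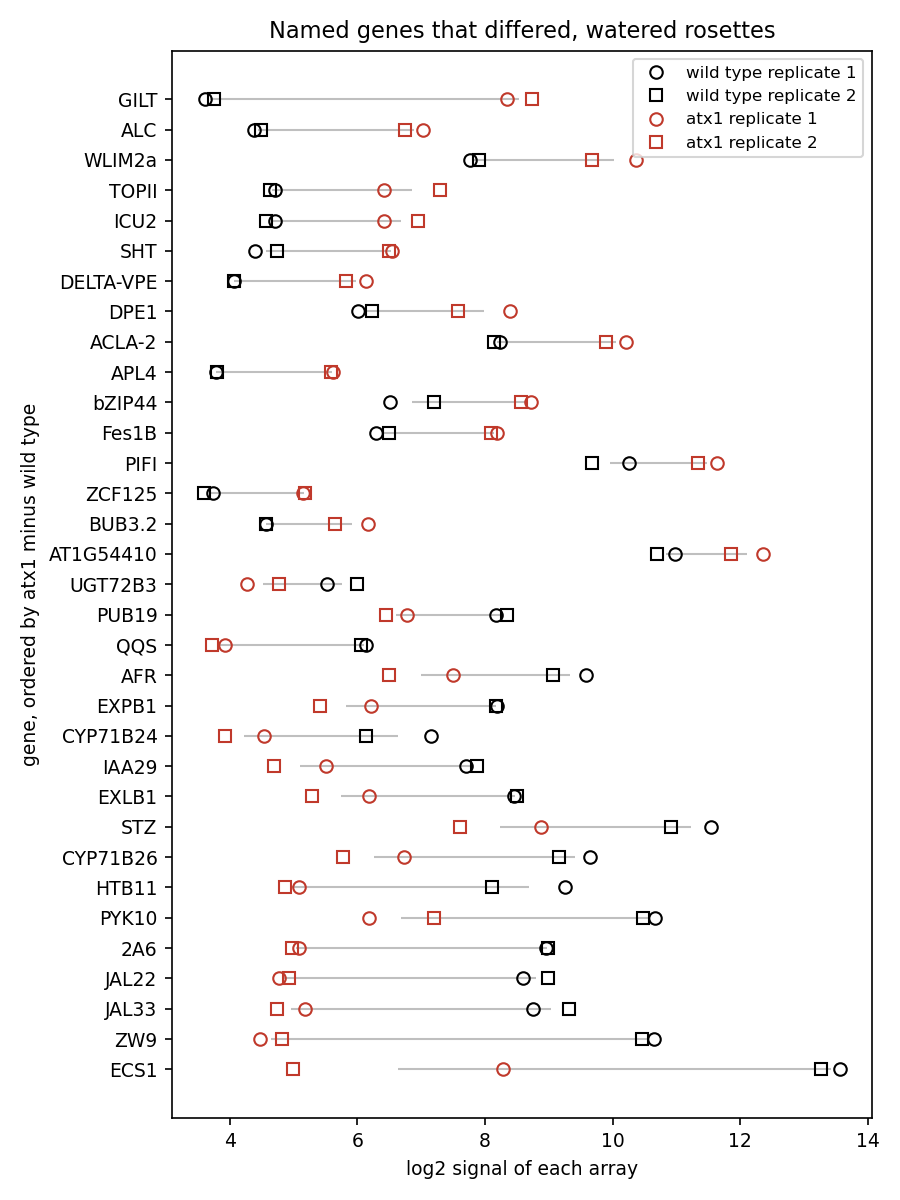
Log2 signal of each watered array for the 33 named genes that were called, with wild type in black, atx1 in red, circles for replicate 1 and squares for replicate 2, ordered by the difference between the group means. The groups do not overlap for any gene, which holds for all 501 called probe sets and for 43% of all probe sets. The atx1 arrays of ECS1 stand 3.29 apart.

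Another 10 called genes with a symbol fell outside the naming rule, SWEET4 and SWEET13 among them, and were looked at after their values were seen. chr31 (AT1G05490), a chromatin remodelling gene, was at 4.09 and 4.0 against 5.23 and 5.44 (adjusted p = 0.0134). CSA1 (AT5G17880) and LOV1 (AT1G10920), both of the nucleotide-binding leucine-rich repeat class of immune receptors, differed in opposite directions, CSA1 by -1.70 and LOV1 by 0.88. PUB25, a further U-box ligase gene, was 4.19-fold lower (adjusted p = 0.0074), and ARL, an ARGOS-like gene of organ growth, was 2.95-fold lower (adjusted p = 0.0227). The carboxypeptidase-like gene scpl48 was 2.42-fold higher and ZCF37 4.78-fold lower (adjusted p = 0.0255 and 0.041). The mitochondrial gene nad1, for a subunit of respiratory complex I, was lower on 1 of its probe sets, at 5.34 and 5.61 against 3.98 and 3.87 (adjusted p = 0.00386), while 0 of the 11 mitochondrial genes, each taken at its brightest probe set, were called. Of these genes nad1 was called whichever array was left out.

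Of the 501 called probe sets, 42 stood for a gene with a symbol and 225 were not listed in the annotation. That is 2.66% of the 1580 probe sets with a symbol and 2.58% of those not listed, both near the 2.2% of all probe sets. Among genes known by their locus only, also chosen after their values were seen, AT1G66100 had the largest difference of all, at 12.83 and 12.32 in wild type and 5.80 and 4.05 in atx1 (log2 difference -7.65, adjusted p = 0.000706). AT3G47250 was at 9.19 and 9.45 against 3.79 and 3.50 (adjusted p = 0.00357). AT2G15560 had the largest difference upwards, at 5.17 and 5.32 against 10.04 and 10.79 (36.0-fold, adjusted p = 0.000856). These 3 were called whichever array was left out. AT5G03350 was at 11.80 and 11.83 in wild type, while its atx1 arrays were 8.23 and 4.73 (adjusted p = 0.0445), a split like that of ECS1.

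Of the genes set down as readouts of ATX1 and of drought, few were measured and none but STZ was called. THI2.1, a thionin of jasmonate responses, was at 8.85 and 10.10 against 11.24 and 11.15 (log2 difference 1.72, adjusted p = 0.245). The groups did not overlap, but the wild-type arrays were far apart. PDF1.2, a defensin, was at 7.67 and 6.41 against 8.92 and 6.75 (adjusted p = 0.858), and COR15A, a chloroplast protectant induced by cold and drought, at 10.08 and 9.54 against 10.90 and 9.05 (adjusted p = 0.99). Both overlapped between groups. Of 46 MADS-box and flowering-time genes 0 were called and 4 had an unadjusted p under 0.05, against 12.6% of all probe sets. The highest differences were in AGL42 (1.83, adjusted p = 0.218) and the clock and flowering gene GI (1.64, adjusted p = 0.33). The list's median was -0.06. Of trithorax and Polycomb genes only ULT1, a trithorax partner, and RBL, related to a subunit of the COMPASS complex, were measured, at differences of -0.45 and 1.06, and neither was called (adjusted p = 0.818 and 0.208).

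Dehydration proteins and ABA genes, read in watered plants, held 1 call among 12, against 1.2% of all probe sets called higher. AT1G54410, the dehydrin HIRD11 of RefSeq, was at 10.98 and 10.70 against 12.36 and 11.85 (2.41-fold higher, adjusted p = 0.022). It was among the brightest genes in both groups, and its call ended without either wild-type array or atx1 replicate 1 (adjusted p from 0.0967 to 0.144). The median of the list was 0.41, or 0.22 without either wild-type replicate 2 or atx1 replicate 1 and 0.74 without atx1 replicate 2. Among its members not called were COR47, a further dehydrin, at 0.88 (adjusted p = 0.385) and LTI30, a cold-induced dehydrin, at 0.00. The 69 genes of the plastid genome had 0 calls and 3 at an unadjusted p under 0.05, against 12.6% of all probe sets. Their median difference was nonetheless 0.77, with 65 above 0. The lowest was -0.62 in ndhA and the highest 2.21 in atpA, where the arrays were 8.72 and 10.89 against 11.65 and 12.39. The median level of the 69 genes was 9.37 and 10.24 on the wild-type arrays against 10.11 and 11.04 on the atx1 arrays. The groups thus overlapped, while within each replicate number the atx1 array was the higher. Without wild-type replicate 1 the median difference was 0.45. The 8 nuclear photosynthesis genes had a median of 0.09 (-0.01 with median centring), and 0 were called.

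Tubulin and actin genes had a median of 0.63, with 0 of 9 called, and the 10 flavonoid and anthocyanin genes a median of -0.54, also with 0 called. The flavonoid median was -0.21 without wild-type replicate 1 and -1.0 with the dimmest 40% of probe sets left out. TUB1 was at 6.52 and 6.95 against 8.74 and 7.98 (adjusted p = 0.299). At an unadjusted p under 0.05 were 2 of the tubulin and actin genes and 1 of the flavonoid genes, against 12.6% of all probe sets. No call was made among 16 jasmonate and thionin genes, of which 4 had an unadjusted p under 0.05, or among 8 glucosinolate genes, of which 0 did. None was made either among 11 gibberellin, brassinosteroid and cytokinin genes (0 at an unadjusted p under 0.05) or 16 genes for nitrate, phosphate, sulfate and iron (3 did). Of all probe sets 12.6% had an unadjusted p under 0.05. The medians of these 4 lists lay between -0.10 and 0.14 in the main fit. With the dimmest 40% of probe sets left out they were 0.80 for jasmonate and thionin, -0.39 for gibberellin, brassinosteroid and cytokinin, and -0.42 for nitrate, phosphate, sulfate and iron. The glycosyltransferase and auxin medians were then -0.53 and -0.32, and that of the lectin and beta-glucosidase list 0.41. Without atx1 replicate 2 the medians of the P450, expansin and glucosinolate lists were above 0, at 0.035, 0.0094 and 0.12. With 2.2% of all probe sets called, 0 or 1 call in the longer lists was near the background.

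**Figure D3:**
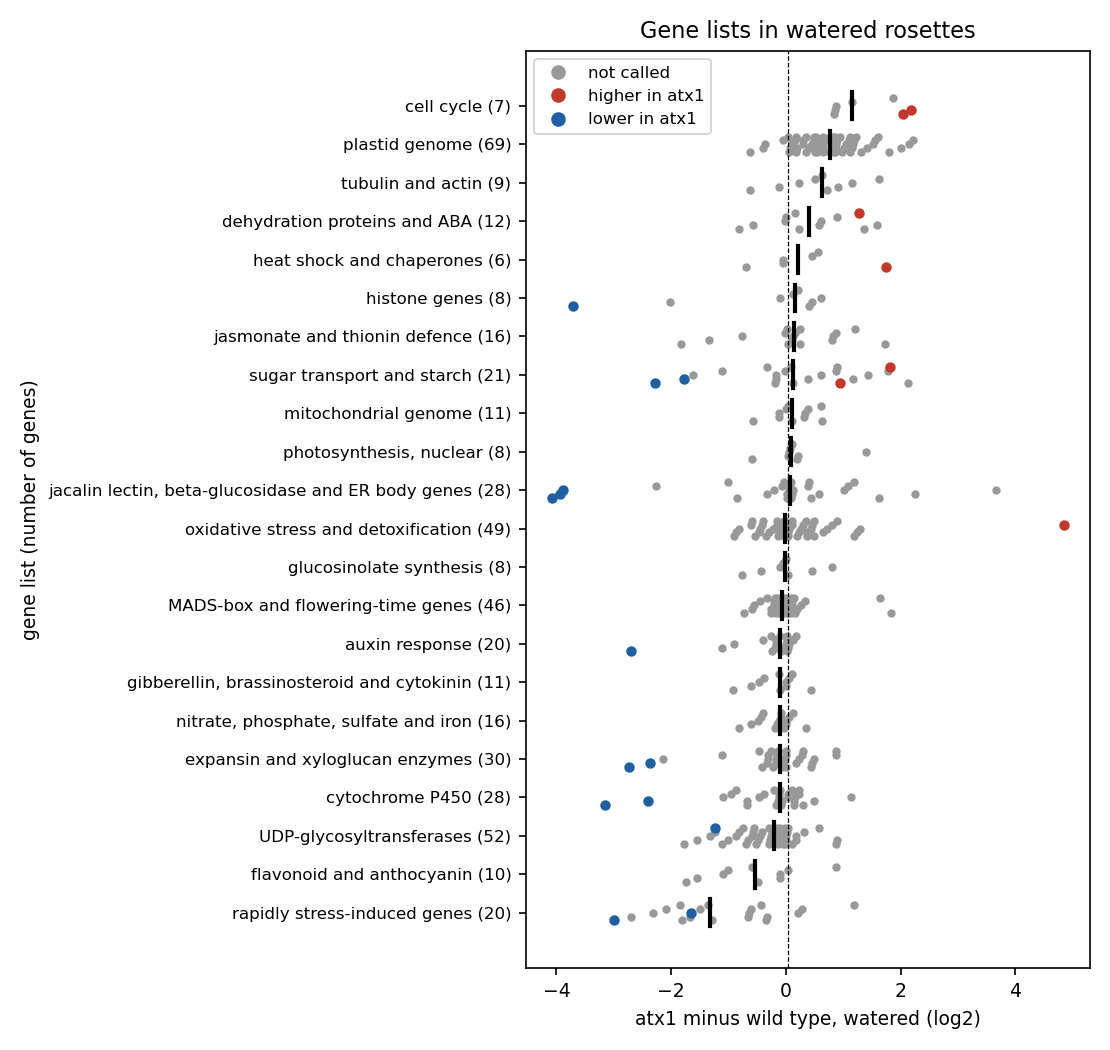
Difference between watered atx1 and wild type (log2) for each measured gene of the lists, 1 row per list with its number of genes, a black bar at the median and a dashed line at the median of all probe sets, 0.04. The medians run from 1.16 for cell cycle genes to -1.32 for rapidly stress-induced genes, and most genes were not called.

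Markers of rosette leaf were high and level, with RCA (Rubisco activase) at 13.32 and 13.42 against 13.04 and 13.78. The guard cell gene FAMA (FMA in the annotation) was at 7.25 and 7.35 against 6.93 and 7.06, and the trichome gene TRY at 7.49 and 6.35 against 6.41 and 5.70. Neither was called. The pollen genes MGH3 and AGL66 were dim throughout, at 4.16 to 4.56. Of senescence genes, WRKY53 was lower by 1.49 (adjusted p = 0.181) and SAG101 higher by 0.46 (adjusted p = 0.563), so the pair did not move one way. Of the 7 markers of dividing cells only AUR1 and TOPII were measured, with a mean level of 5.86 and 5.55 in wild type and 7.31 and 7.44 in atx1. The part of dividing cells in the other differences was not tested. No marker of epidermis, phloem, xylem, flower or seed was measured under its name.

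The water-deficit arrays of the same genotypes share no array with the watered ones, only the estimate of the spread. A probe set with a small estimate is called more readily in both water states. The shares called over all probe sets are thus not a matched background. Of the 272 probe sets higher in watered atx1, 265 were also higher in atx1 under water deficit and 222 (81.6%) were called higher there, against 7.36% of all probe sets. Of the 229 lower ones, 206 were also lower and 135 (59.0%) were called lower, against 4.73%. All in all, 12.1% of probe sets were called between the genotypes under water deficit, and 66.4% of probe sets had the same sign in both water states. The differences in the 2 water states correlated at 0.568 across probe sets, as a description. GILT, at 3.70 and 4.12 against 10.21 and 10.92 under water deficit, and ECS1, at 10.54 and 11.02 against 5.30 and 5.79, kept their direction and were called (adjusted p = 2.56e-05 and 0.00775). In ECS1 the atx1 deficit arrays lay near the lower of the watered pair. Of the cell cycle genes, TOPII and ICU2 were higher there too, by 1.62 and 1.78 (adjusted p = 0.0331 and 0.00958), and the list's median was 1.38 with 4 of 7 called. AT3G47250 stood at 10.90 and 10.31 against 3.61 and 3.60 (adjusted p = 0.000597), and AT1G66100 was lower by 4.99 (adjusted p = 0.0017). HTB11 and both P450 genes were lower by 2.72, 2.86 and 2.41 and were called (adjusted p = 0.0227, 0.00309 and 0.0171).

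Some genes were called between genotypes in watered plants and not under water deficit. PYK10 was at 8.03 and 7.67 against 6.89 and 7.65 there, a difference of -0.58 (adjusted p = 0.562). EXPB1 differed by -0.18, BUB3.2 by 0.16 and AT1G54410 by 0.23 under water deficit, and none of these was called. The test of the difference between water states was not passed by any of these 4 (adjusted p = 0.136, 0.25, 0.225 and 0.251). APL4 came nearest, with levels of 8.55 and 8.67 in wild type and 8.84 and 8.63 in atx1 under water deficit (difference 0.13), and a difference between water states of 1.68 (adjusted p = 0.0645). That test called 40 probe sets in all (0.176%), 16 (0.0703%) with a larger difference, taking its sign into account, in watered plants and 24 (0.106%) with a smaller one. Of the 501 probe sets, 10 were called. DELTA-VPE was at 4.0 and 3.85 against 9.03 and 8.80 under water deficit, a difference of 4.99 that exceeded the watered one (adjusted p = 0.00991). IAA29 was low in both genotypes under water deficit, at 4.49 and 4.46 against 5.0 and 4.51 (adjusted p of the difference between water states = 0.0377). ZW9 kept its direction but differed less, at 11.86 and 11.69 against 8.88 and 9.15 (adjusted p = 0.0359). SWEET4 changed direction, from 0.94 in watered plants to -1.36 under water deficit, where it was at 11.42 and 11.20 against 9.86 and 10.04 (adjusted p = 0.032), and was 1 of 4 probe sets called in opposite directions in the 2 water states. The others were AT4G20320 and 2 that the annotation does not list. Few or no calls of this test were made when any 1 of the watered atx1 and wild-type arrays was left out. Such a fit leaves 1 array in a group and has less power, so it cannot show whether a call rests on that array.

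**Figure D4:**
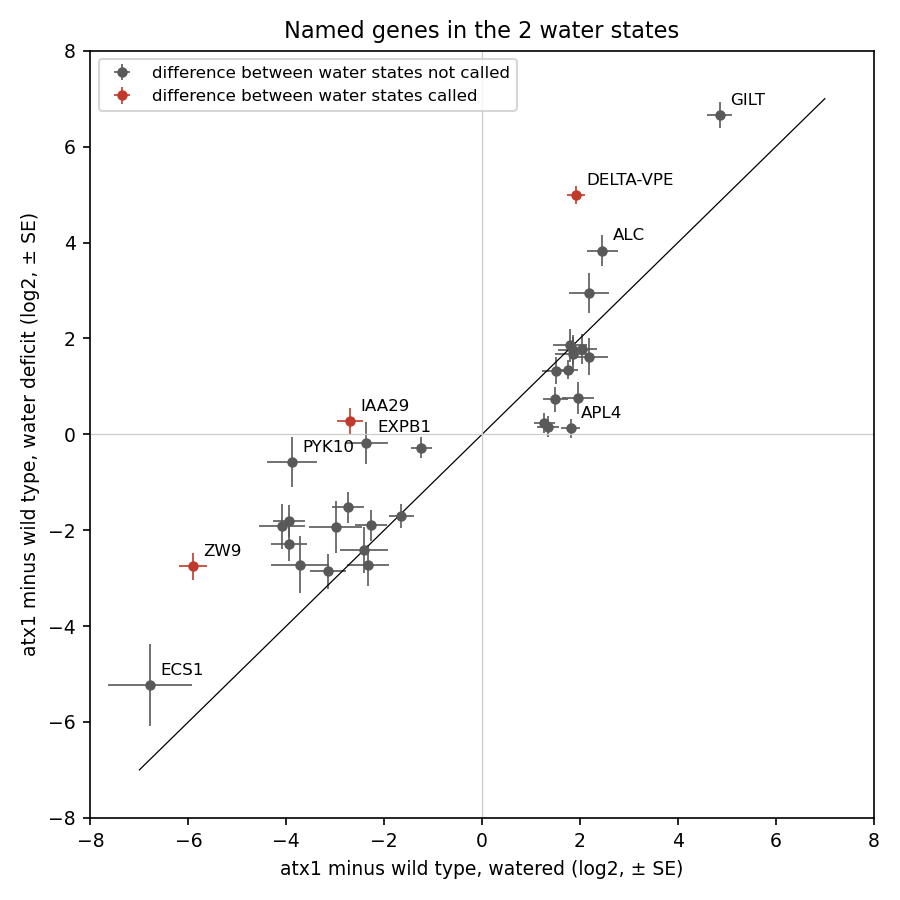
Difference between atx1 and wild type for the 33 named genes that were called, in watered plants (x axis) and under water deficit (y axis), in log2 with limma standard errors, and a line where both are equal. DELTA-VPE, IAA29 and ZW9, in red, were called by the test of the difference between water states.

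Watered MYO-OX rosettes were set beside these values. They were compared with the same 2 wild-type arrays, so the comparisons are not independent. limma called 0 probe sets between watered MYO-OX and wild type (0%), against 606 at an unadjusted p under 0.05. Over the 272 probe sets higher in atx1 the median difference of MYO-OX from wild type was 0.04, and over the 229 lower ones -0.06. GILT stood at 3.68 and 3.77 in watered MYO-OX, near wild type, and ECS1 at 13.57 and 13.63. QQS was at 8.27 and 7.24 in MYO-OX, above its wild-type 6.14 and 6.06, where atx1 was below. AT5G62360, a gene known by its locus only and chosen after its values were seen, was at 10.39 and 9.27 in MYO-OX, near the 11.05 and 9.71 of atx1, while wild type was at 5.99 and 6.15.

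The response of MYO-OX to water deficit uses no array of the atx1 comparison, and was looked up for the called probe sets after other results were seen. Of the probe sets lower in watered atx1, 44.1% fell in MYO-OX under water deficit and 15.3% rose, against 14% and 10.7% of all probe sets (24.7% called in all). Of those higher in watered atx1, 11.8% rose and 8.09% fell. The median response was -0.65 over the lower ones, 0.03 over the higher ones and 0.04 over all. The lower ones were picked for a higher level in watered wild type, with a median of 8.07 against 6.08 over all probe sets. Watered MYO-OX stood near wild type there, with a median difference of -0.06. All probe sets are thus not a background of like level, and the estimate of the spread was shared too. The part of both in these shares was not tested. Among the lower genes IAA29 fell in MYO-OX by 4.10 and 2A6 by 2.30, and PUB19 rose by 4.29. APL4, of the higher genes, rose by 4.32. Arrays of watered wild type and watered MYO-OX with the same replicate number deviated from their group means together, at a correlation of 0.561 across probe sets, and the part of that in these shares was not tested.

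Called genes showed no long runs along the chromosomes. Of 12262 measured genes with a place in the gene order, 256 were called. Among these, 0 runs of 3 or more lay within 10 loci, and 25 pairs did, 17 of them in 1 direction. Loci without a measured gene could hide a run. Whether 25 pairs is more than the background was not tested. The share of probe sets called was between 1.43% on chromosome 4 and 2.36% on chromosome 1. Both pairs of immediate neighbours went one way, AT1G66090 with AT1G66100, lower by 3.20 and 7.65, and ICU2 with ALC, higher by 2.04 and 2.46. The annotated ranges of ICU2 and ALC overlap in TAIR10.1, so that the 2 probe sets may not be separate measures. Other pairs within 10 loci were GILT with AT4G12890, both higher, and ZCF125 with ZCF37, which differed in opposite directions.

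The genes whose replicates differed most set the limit of what 2 arrays can show. The plastid genes rps14, ndhF and psaA led in both groups, and same-numbered arrays differed alike, with rps14 at 7.50 and 4.12 in wild type and 8.19 and 4.74 in atx1. For psaA, a core protein of photosystem I, it was replicate 2 that was higher in both, at 7.74 and 10.62 and at 8.65 and 12.07. In wild type pEARLI4 (5.69 and 8.57) and ATA27 came next, and in atx1 MCCA, for a subunit of methylcrotonyl-CoA carboxylase (6.32 and 9.71), and ECS1. Of these only ECS1 was called between the genotypes. Of the 501 probe sets, 90 (47 higher and 43 lower) were called whichever of the 4 arrays was left out, and 9 of those had a symbol, namely GILT, DELTA-VPE, APL4, nad1, IAA29, 2A6, JAL22, JAL33 and ZW9. In a fit of the 4 watered arrays alone 7 of the 33 named genes were still called, GILT, ALC, QQS, 2A6, JAL22, JAL33 and ZW9. Median centring left 27 called, and the calls of WLIM2a, DPE1, bZIP44, PIFI, BUB3.2 and AT1G54410 ended there, with adjusted p from 0.0525 to 0.0693.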

How the data were processed

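Total RNA of rosettes was measured on Affymetrix ATH1 arrays, 12 in all and 4 in the main comparison. The values used are the log2 signals deposited by the authors, made by RMA per the submitters' processing notes, with no version given there. RMA normalizes arrays to a common distribution, so a general shift between genotypes would not be seen. Of 22810 probe sets, 64 controls were set apart and 22746 tested. Names came from the array's annotation, joined by gene identifier to RefSeq for TAIR10.1 (13502 probe sets matched).

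One mean per group was fitted over all 12 arrays with limma 3.58.1 in R 4.3.3 (6 residual and 2.34 prior degrees of freedom), with moderated two-sided tests and Benjamini-Hochberg adjustment over all probe sets. Labels call the arrays biological replicates and do not say that they were separate cultures or harvests, so p-values measure the spread between these arrays. When an array is left out, the lone array of its group is assumed to vary like the other groups. Such a fit also has less power, so a call that ended there cannot be laid to the array left out.

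Members, lists and tests were chosen with earlier results of these data known. Named genes were the 15 called genes with the largest difference in each direction among those with a symbol and groups apart, up to 2 called genes of each of 23 lists, a panel of 13 genes, and the 5 genes with the widest replicates of each group. A gene was taken at its brightest probe set. No gene list was tested as a set. The lists were trimmed once the annotation was seen. The planned search of promoters for motifs was not run. Simulated data held 200 changed probe sets in each of 10 sets. Of log2 changes of 1, 2, 3 and 4, 16%, 82.8%, 89.6% and 97.6% were recovered. On average 5.44% of the calls made there were false. Noise was drawn for each array on its own, so deviations shared by same-numbered arrays were not simulated. These shares may thus not hold for the real arrays. Replicate numbers were not used to pair the samples in the main fit. Deviations of same-numbered arrays correlated between -0.286 and 0.561 over all pairs of groups. The 3 pairs of watered groups gave 0.514, 0.561 and 0.514, and atx1 watered with atx1 under water deficit gave 0.499. A pairing of the watered arrays was thus not excluded.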

Additional observations from a re-analysis of the deposited data

Results flagged for a closer look

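For 3 named genes the difference between atx1 and wild type was itself different in the 2 water states, by limma's test of that difference over all probe sets. The watered difference minus the water-deficit difference was -3.07 for DELTA-VPE (adjusted p = 0.00991), -2.97 for IAA29 (adjusted p = 0.0377) and -3.15 for ZW9 (adjusted p = 0.0359). For DELTA-VPE both differences were above 0 and the water-deficit one was larger, for ZW9 both were below 0 and the watered one was larger, and for IAA29 the genotypes differed by -2.70 in watered plants and 0.28 under water deficit. No group has enough arrays to look for a single array that stands apart.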

How the results depend on the processing

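No called named gene changed direction under those of the 15 alternatives that tested it; 7 of 33 (TOPII, ICU2, SHT, DELTA-VPE, ZCF125, BUB3.2 and UGT72B3) were not in the fit without dim probe sets. Against 501 calls in the main setting, 60 were made with only the 4 arrays (28 higher, 32 lower), 53 with the 6 watered arrays (27, 26), 220 with those and a replicate block, chosen after seeing the data (111, 109), and 880 with the GAPDH difference as covariate (470, 410). Higher calls numbered 172 without dim probe sets and 425 with the hybridization covariate. With the replicate block over all 12 arrays the count was 616 (343, 273), and of the named genes only CYP71B24 lost its call (adjusted p = 0.0518). Pairing rests on numbers alone, with 2 pairs. Leaving out 1 array gave 101 to 220 calls, 52 to 104 higher and 49 to 124 lower. The 357 watered calls also called the same way under water deficit became 83 to 159. The 40 calls of the difference between water states became 24 with the replicate block, 72 with repeated quantile normalization, 99 with an intensity trend and robust prior, 10 with the GAPDH covariate and 0 to 2 without an array. COR15A, XTH33 and PDF1.2, not called, changed sign: COR15A was at -0.094 with the hybridization covariate and at -0.77 to 1.09 without an array, XTH33 at -0.35 to 0.063 and PDF1.2 at -0.29 to 1.88. The cause was not tested. The water-deficit tests could not be made with only the 4 or 6 watered arrays, and the dimness of the lower level limits large folds.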
